A study of Mus musculus with 3 samples.

Results

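Endothelial cells decide at the blood surface whether a clot starts, grows or dissolves, and 9 genes with a role in these steps were followed in ribosome-bound RNA of the mouse heart. The members are Vwf, Thbd, Procr, Tfpi, F8, F3, Plat, Entpd1 and F2r. They were chosen by name as procoagulant and anticoagulant genes of the vessel wall, and all 9 are among the 17583 genes of the table. Coagulation is set off when tissue factor meets factor VII, and it ends in thrombin, which cleaves fibrinogen and activates platelets. Healthy endothelium holds this back with a thrombin receptor that turns thrombin towards protein C activation, with an inhibitor of the tissue factor complex, with enzymes that remove platelet agonists and with a release of plasminogen activator. The same cells store von Willebrand factor, which captures platelets where the wall is injured, and are the main source of factor VIII.

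The material came from EC-RiboTag mice, with the genotype Cdh5-CreERT2;Rpl22tm1.1Psam. Cre activity follows the endothelial promoter of Cdh5 and is inducible, and recombination leaves the ribosomal protein RPL22 with an HA epitope, so that ribosomes of recombined cells can be pulled out of whole tissue together with their RNA. All 3 libraries are labelled as biological replicates of 1 group, taken here as separate mice and named mouse 1, mouse 2 and mouse 3, and were read from 1 end for 72 bases. By the labels the hearts were taken 7 days after a coronary artery was ligated, whereas the RiboTag methods of the study mention no infarction. The labels do not spell out the Rz of the sample titles. Elsewhere the study shortens remote zone, the part of an infarcted heart away from the scar, to RZ, and it took endothelial ribosome-bound RNA from that zone for PCR. Remote zone is thus a possible reading of the titles, which the labels do not settle. Mice of the study were backcrossed to C57BL/6, and neither age nor sex is labelled. Without an input, sham or control library among those analysed here, the values describe levels in the immunoprecipitate, and no condition could be compared with another.

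The values are normalized counts, that is, reads per gene divided by a size factor of the library and rounded to whole numbers. The sums over all genes were 7149102, 7158585 and 7268785 for mice 1, 2 and 3. Rounding skips some whole numbers and fills others 2 times, and this pattern put the worth of 1 read at 0.977, 1.06 and 0.961 normalized counts, or the libraries at about 7319000, 6755000 and 7566000 reads. Intervals given below are exact Poisson intervals at 95% on these reads and cover counting error alone. RNA of endothelial cells was present, since all 12 marker genes of that type were listed with a mean of at least 200. Without an input library, enrichment over the tissue, which the study assessed by PCR, is not measured by these 12 genes. Their summed normalized count was 28759, 27701 and 27593 in mice 1, 2 and 3, with Flt1 the most abundant at 4919 ± 392 (SD, n = 3). RNA of cardiomyocytes was also present, since 10 of 10 markers of that type had a mean of at least 200. They summed to 20679, 21339 and 24237 normalized counts in mice 1, 2 and 3, with Ttn the most abundant at 8437 ± 1529 (SD, n = 3), and their part in the members' values was not tested. The higher sum in mouse 3 came from Ttn, with 7379, 7743 and 10190, and Ryr2, with 3280, 3667 and 4486, while Tnni3, Actc1, Myl2, Myl3, Pln and Mb were each lowest there. Tnnt2 was highest in mouse 3 by little, with 1309, 1382 and 1407, and Myh6 was highest in mouse 2.

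Of the 9 members, 7 had a mean normalized count of at least 200, a level that 53.2% of all listed genes reached. F3 and F8 were below it. The median of the members was 986 normalized counts, beside 237 for all listed genes, and per kb of the canonical transcript it was 268.7 beside 73.0. For 6 of the 9 members the coefficient of variation between mice was under 10%, beside 41.7% of all listed genes, and for 5 it was under 2 times what counting alone gives, beside 65.6%. Both shares depend on level, and nothing is read from them about the members. The median coefficient was 6.60%, beside 12.6% over all listed genes and 7.37% over the 9358 genes at a mean of 200 or more, which leave out F3 and F8.

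**Figure D1:**
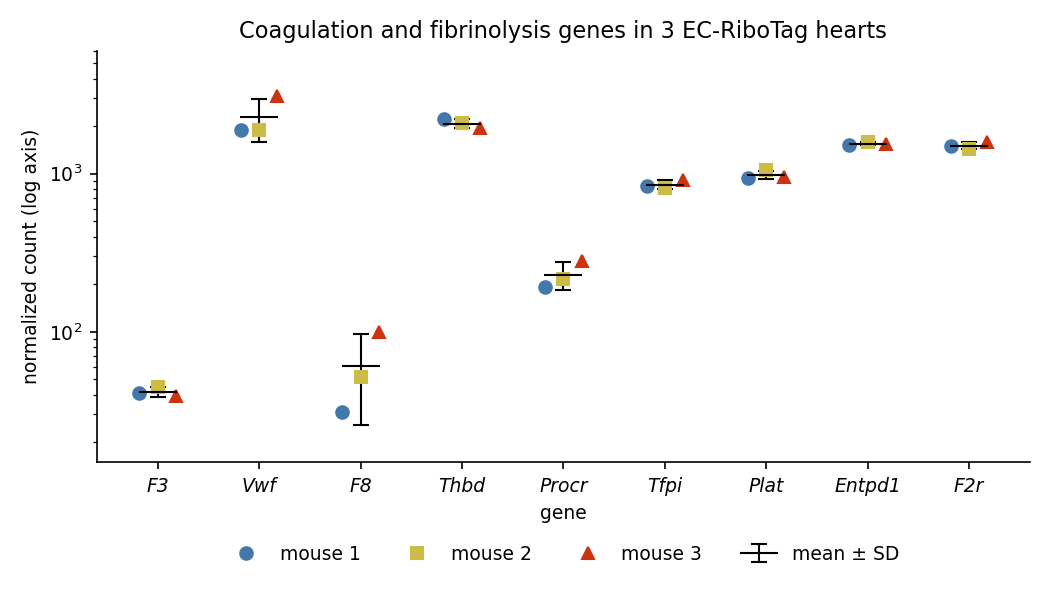
Normalized count of each of the 9 genes in mouse 1 (circle), mouse 2 (square) and mouse 3 (triangle) on a log axis, with the mean and SD over the 3 mice in black. Vwf and F8 are set apart by mouse 3, at 3098 and 100 normalized counts, while the 3 points of Entpd1 lie between 1530 and 1582.

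Vwf (ENSMUSG00000001930) encodes von Willebrand factor, the multimeric glycoprotein that tethers platelets to an injured wall and carries factor VIII in plasma. In GRCm39 it occupies positions 125523737 to 125663642 of chromosome 6, on the plus strand, and these and the positions of the other members are as in the deposited table. Its normalized count was 1898 in mouse 1, 1886 in mouse 2 and 3098 in mouse 3. Mice 1 and 2 were nearly equal, and mouse 3 lay above both by 1.63 times the next value. The mean was 2294 ± 696 (SD, n = 3), with a coefficient of variation of 30.4%, against 2.08% from counting alone. In such pooled RNA, a larger share of cells with the transcript and more transcript per cell cannot be told apart. Cdh5, the gene of the endothelial junction protein VE-cadherin, had 2808, 2860 and 2930 normalized counts and varied by 2.14%. After removal of duplicates a kb offers 1000 start positions, each of which can hold about 1 read. Cdh5 had 713 normalized counts per kb of canonical transcript, near this limit, so its spread and its distance from Vwf may be understated. The same limit holds for any gene near it, and so for the sum of the 12 endothelial markers, which lay at 460.8 to 809.4 per kb. Of the cardiomyocyte markers, Myl2, Tnnt2, Myl3, Tnni3, Myh6 and Mb lay at 555.4 to 819.2 per kb, so their spread may be understated. Ryr2 and Ttn, at 226.1 and 78.5 per kb, lay further from the limit. Per base, the log2 ratio of Vwf to Cdh5 was -1.70 in mouse 1, -1.74 in mouse 2 and -1.06 in mouse 3, so Vwf stayed below Cdh5 in each mouse (mean -1.50 ± 0.38, SD, n = 3; two-sided exact sign-flip p = 0.25). With the length of all annotated exons in place of the canonical transcript the mean was -2.29. With 3 mice this test cannot give a p below 0.25, which all 9 pairs of genes compared here reached, also after Benjamini-Hochberg adjustment over the 9 pairs.

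F8 (ENSMUSG00000031196), for the cofactor that von Willebrand factor carries, is X-linked (positions 74216321 to 74426221, minus strand). It had 31 normalized counts in mouse 1 (interval 21.4 to 44.1), 52 in mouse 2 (38.4 to 68.7) and 100 in mouse 3 (81.6 to 121.1). The interval of mouse 3 does not overlap the other 2, which overlap each other. With a mean of 61 ± 35.4 (SD, n = 3) F8 had the largest coefficient of variation of the members, 58.0%, against 12.7% from counting. The mice also differed in sex-linked genes, which were looked up after values had been seen. Xist had 4, 618 and 869 normalized counts in mice 1, 2 and 3, and the Y-linked Ddx3y had 1080, 3 and 1. By these values mouse 1 was male and mice 2 and 3 were female. The part of sex in the F8 values was not tested, and it cannot be told apart from other traits of mouse 1. Per base, Vwf exceeded F8 in all 3 mice, by a log2 ratio of 6.06, 5.31 and 5.09 (mean 5.49 ± 0.51, SD, n = 3; 44.9-fold; two-sided exact sign-flip p = 0.25). By exonic length the mean was 4.59, or 24.0-fold.

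F3 (ENSMUSG00000028128) encodes tissue factor, the membrane receptor of factor VII that starts coagulation and that quiescent endothelium keeps low. The gene spans positions 121517186 to 121528697 of chromosome 3, plus strand. F3 had 41 normalized counts in mouse 1 (interval 29.6 to 55.5), 45 in mouse 2 (32.1 to 60.2) and 39 in mouse 3 (28.3 to 53.4). The 3 intervals overlap, and the coefficient of variation of 7.33% was below the 15.5% that counting gives, so no difference between mice was detectable at this depth. F5, the gene of the prothrombinase cofactor factor V, was lower still, with 10.3 ± 2.08 normalized counts (SD, n = 3).

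Thbd (ENSMUSG00000074743) encodes thrombomodulin, the endothelial receptor that diverts thrombin from fibrinogen to protein C. Its canonical transcript has 1 exon, and the table places the gene at positions 148246386 to 148250108 of chromosome 2, minus strand. Thbd had 2209, 2084 and 1938 normalized counts in mice 1, 2 and 3. Mouse 1 was the highest, the only member for which this held, but the values lay within 1.14 times of each other. The mean was 2077 ± 136 (SD, n = 3), with a coefficient of variation of 6.53%. Per kb of canonical transcript Thbd reached 557.9 ± 36.4 normalized counts (SD, n = 3), rank 390 of 17475 genes with a known length and the highest place of the 9 members. Per kb of all annotated exons it had 284, second to F2r with 338.7. By canonical length Thbd thus lay nearest of the members to the limit of 1000 start positions per kb. Its spread and its distance from F3 and Procr may therefore be understated. Per base Thbd exceeded F3 by a log2 ratio of 4.83, 4.62 and 4.72 in mice 1, 2 and 3 (mean 4.72 ± 0.11, SD, n = 3; 26.4-fold; two-sided exact sign-flip p = 0.25).

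Procr (ENSMUSG00000027611) encodes the endothelial protein C receptor, which presents protein C to the thrombin and thrombomodulin complex. It is also on chromosome 2, at positions 155593037 to 155597391 of the plus strand. Procr had 193 normalized counts in mouse 1 (interval 167.4 to 222.3), 217 in mouse 2 (188.5 to 249.1) and 280 in mouse 3 (248.4 to 313.6). Mouse 3 was the highest, and its interval overlaps that of mouse 2 but not that of mouse 1. The mean was 230 ± 44.9 (SD, n = 3), and the coefficient of variation of 19.5% lay just under the 20% used below to call a gene variable. Per base Procr was below Thbd in each mouse, with a log2 ratio of -2.30, -2.05 and -1.58 (mean -1.98 ± 0.37, SD, n = 3; two-sided exact sign-flip p = 0.25), a 3.94-fold lower level, or 2.55-fold lower by exonic length. This distance was smallest in mouse 3. Pros1, for the protein C cofactor protein S, had 1384 ± 73.3 normalized counts (SD, n = 3). Proc and Serpina5, for protein C itself and its inhibitor, are not listed in the table analysed here.

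Tfpi (ENSMUSG00000027082) encodes tissue factor pathway inhibitor, which inhibits activated factor X and the complex of tissue factor and factor VII. Like Thbd and Procr it is on chromosome 2, at positions 84263199 to 84307119 of the minus strand. Tfpi had 834, 807 and 915 normalized counts in mice 1, 2 and 3, with a mean of 852 ± 56.2 (SD, n = 3). The mice differed little, with a coefficient of variation of 6.60% against 3.42% from counting. Per base Tfpi exceeded F3 in each mouse, by a log2 ratio of 4.23, 4.05 and 4.43 (mean 4.23 ± 0.19, SD, n = 3; 18.8-fold; two-sided exact sign-flip p = 0.25). By exonic length the mean was 3.35, or 10.2-fold, so the inhibitor's transcript was the more abundant on both scales. Of 6 genes chosen for the tissue factor pathway inhibitor and antithrombin arms, 4 are in the table. All 4 had a mean of at least 200, beside 53.2% of all listed genes. Tfpi2, a related inhibitor, had 267.7 ± 3.79 normalized counts, Hs3st1, an enzyme that builds antithrombin-binding heparan sulfate, had 431 ± 31.5, and Hspg2, the core protein of the heparan sulfate proteoglycan perlecan, had 3837 ± 835 (SD, n = 3 each). Hspg2 was variable and high in mouse 3, with 3250, 3469 and 4793. Serpinc1 and Serpind1, for antithrombin and heparin cofactor II, are not listed in the table analysed here.

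Plat (ENSMUSG00000031538) encodes tissue-type plasminogen activator, which endothelial cells release to dissolve fibrin. Its place is chromosome 8, positions 23247743 to 23272860 of the plus strand. Plat had 945, 1055 and 958 normalized counts in mice 1, 2 and 3, a mean of 986 ± 60.1 (SD, n = 3). Mouse 2 was the highest by 1.10 times the next value. The coefficient of variation was 6.10%, against 3.19% from counting.

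The other genes of plasminogen activation were all at a mean of at least 200, apart from Plg, for plasminogen, which is not listed in the table analysed here. Of all listed genes, 53.2% reached that mean. Plau, for urokinase, had 624 ± 84.7 normalized counts, and its receptor gene Plaur had 581 ± 114 (SD, n = 3 each). Per base of canonical transcript Plat exceeded Plau by a log2 ratio of 0.60, 0.41 and 0.57 in mice 1, 2 and 3 (mean 0.52 ± 0.10, SD, n = 3; two-sided exact sign-flip p = 0.25), but per base of all annotated exons the mean ratio was -0.78. Which activator was more abundant thus turns on the transcript length used. Anxa2 and S100a10, which form a plasminogen-binding complex on the cell surface, had 1205 ± 74.6 and 527.3 ± 28.4, and Plgrkt, for a plasminogen receptor, had 402.7 ± 45.1 (SD, n = 3 each). Anxa2, at 833.0 normalized counts per kb, lay near the limit of start positions, so its spread may be understated. Serpine2, for the inhibitor protease nexin-1, had 230, 288 and 374, with mouse 1 the lowest and mouse 3 the highest. Serpinb2, Serpinf2 and Cpb2 are not listed in the table analysed here.

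Entpd1 (ENSMUSG00000048120) encodes CD39, which hydrolyses ATP and ADP and so removes a platelet agonist. The gene covers positions 40600810 to 40730046 of chromosome 19, plus strand. Entpd1 had 1530, 1582 and 1531 normalized counts in mice 1, 2 and 3, a mean of 1548 ± 29.7 (SD, n = 3). It was the least variable member, with a coefficient of variation of 1.92%, below the 2.54% from counting. Nt5e, for CD73, which turns the AMP made by CD39 into adenosine, had 129, 132 and 195. Per base Entpd1 exceeded Nt5e in each mouse, by a log2 ratio of 3.09, 3.11 and 2.50 (mean 2.90 ± 0.35, SD, n = 3; 7.46-fold; two-sided exact sign-flip p = 0.25). By exonic length the mean was 3.67, or 12.7-fold. The first enzyme of the pair was even across mice and the second was higher in mouse 3. Among the other genes that restrain platelets, Nos3, for endothelial nitric oxide synthase, had 1704 ± 98.7 normalized counts and Ptgs1, for cyclooxygenase-1, had 739.3 ± 59.6 (SD, n = 3 each). Ptgis, for prostacyclin synthase, had 199, 180 and 333, and mouse 3 was again the highest, by 1.67 times the next value.

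F2r (ENSMUSG00000048376) encodes PAR1, the receptor through which thrombin signals to endothelial cells. It covers positions 95738311 to 95754995 of chromosome 13, minus strand, in the deposited table and 95737382 to 95755177 in the newer annotation used for lengths, with F2rl1 and F2rl2 on the same chromosome and F2rl3 on chromosome 8. F2r had 1489, 1439 and 1591 normalized counts in mice 1, 2 and 3, a mean of 1506 ± 77.5 (SD, n = 3). The 3 values lay within 1.11 times of each other. F2rl1, for PAR2, which is cleaved by trypsin-like proteases rather than thrombin, had 274, 374 and 444, and F2rl3, for the thrombin receptor PAR4, had 220, 211 and 186. Per base F2r exceeded F2rl1 by a log2 ratio of 1.79, 1.29 and 1.19 (mean 1.42 ± 0.32, SD, n = 3; two-sided exact sign-flip p = 0.25). It exceeded F2rl3 by 2.29, 2.30 and 2.62 (mean 2.40 ± 0.19, SD, n = 3; 5.29-fold; two-sided exact sign-flip p = 0.25). F2rl2, for PAR3, is not listed in the table analysed here.

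Genes that process, store or clear von Willebrand factor and factor VIII followed. Of these 14, 12 are listed and 10 had a mean of at least 200, beside 53.2% of all listed genes. Furin, for the convertase that removes the propeptide of von Willebrand factor, had 1714 ± 70.7 normalized counts (SD, n = 3). Lman1 and Mcfd2, whose products form the cargo receptor that takes factor VIII out of the endoplasmic reticulum, had 1208 ± 56.6 and 1104 ± 48.8 (SD, n = 3 each). The trafficking genes Vamp3, Rab3d, Snap23, Stxbp5, Rab27a and Cd63 ranged from 329.7 for Cd63 to 1308 for Rab3d, and each of them varied by less than 10% between mice. So did 67.9% of all genes at a mean of 200 or more, and Vamp3, at 636.8 normalized counts per kb, lay near the limit of start positions, so its spread may be understated. Selp, for P-selectin, which is stored with von Willebrand factor, had 74, 210 and 214, and Lrp1, for a clearance receptor of factor VIII, had 685, 1193 and 1270. Both were low in mouse 1, the library that also stood apart in Xist and Ddx3y, and the part of sex-linked differences in these values was not tested. Stab2, for another clearance receptor, had a mean of 11. Adamts13, for the protease of von Willebrand factor, and Clec4m are not listed in the table analysed here.

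Of the 12 factors made mainly by the liver, F7 and F10 were listed, at means of 3.33 and 3, and the other 10 (F2, F9, F11, F12, F13b, Fga, Fgb, Fgg, Kng1 and Klkb1) are not listed in the table analysed here. None of 5 hepatocyte markers is listed either. Among the remaining genes, Gas6, for a vitamin K-dependent ligand, and Anxa5, for a phosphatidylserine-binding anticoagulant, had 1988 ± 59.7 and 1089 ± 64.5 normalized counts (SD, n = 3 each). At 689.0 and 629.3 normalized counts per kb, both lay near the limit of start positions, so their spread may be understated. Ggcx and Vkorc1, of the vitamin K cycle, had 294.7 ± 9.29 and 95 ± 12.5. F13a1, for a subunit of factor XIII, had 151.7 ± 36.8. Thbs1, for thrombospondin-1, had 184, 622 and 684, with mouse 1 the lowest.

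Over the wider list of 67 coagulation and fibrinolysis genes reported here, 46 were in the table. Of these, 36 had a mean of at least 200, beside 53.2% of all listed genes. Without the 9 members the numbers were 37 of 58 listed and 29 at that mean.

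**Figure D2:**
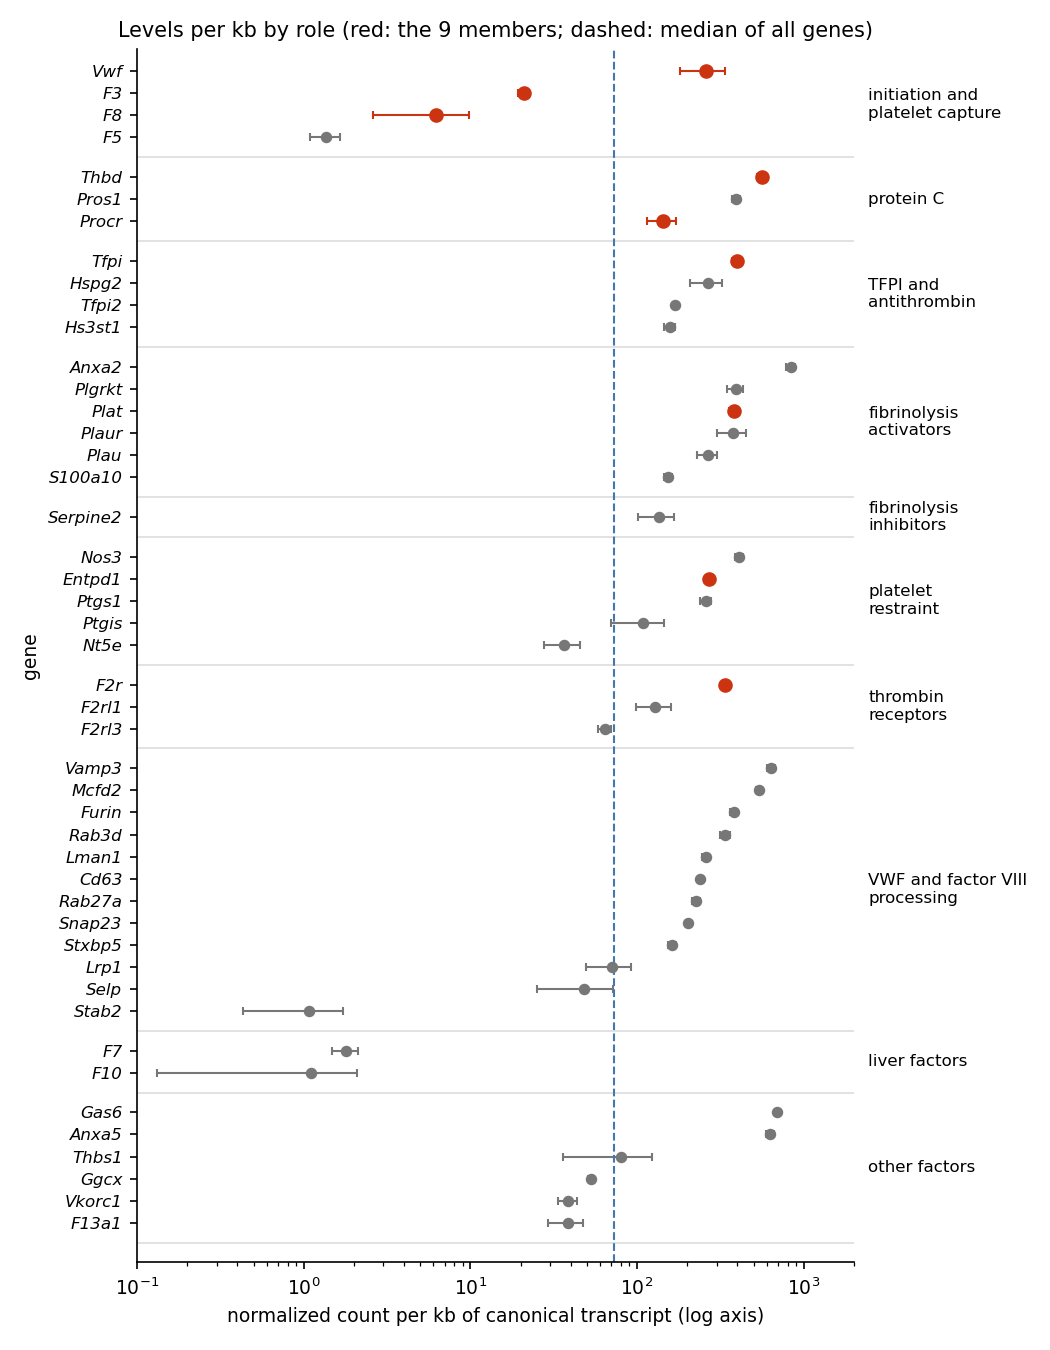
Mean normalized count per kb of canonical transcript, on a log axis, for the 46 listed genes grouped by role, with error bars of 1 SD over 3 mice (bars are symmetric in value, so they look longer to the left). Members are red, other genes grey, and the dashed line is the median of all genes, 73.0. F3 and F8 are the members to the left of the line.

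Levels of different members were ordered per kb of canonical transcript. Thbd came first with 557.9 normalized counts per kb, followed by Tfpi with 397.6, Plat with 380.7, F2r with 338.7, Entpd1 with 268.7, Vwf with 259.7, Procr with 142.9, F3 with 20.9 and F8 with 6.23. Of these, Thbd, Tfpi, Plat and F2r lay in the upper 10% of the 17475 genes with a length. Without mouse 3, F2r moved from rank 1691 to 1875 and fell outside it. Neighbours were told apart where the order held in each mouse and the mean log2 ratio exceeded its SD. Tfpi and Plat did not differ by this rule (log2 ratio 0.06 ± 0.16, SD, n = 3), and neither did Entpd1 and Vwf (0.09 ± 0.42, SD, n = 3), since Vwf moved above Entpd1 in mouse 3. The other 6 neighbouring pairs did. Before division by length Vwf had the highest mean normalized count of the members, which rested on mouse 3, since Thbd was higher in mice 1 and 2 and without mouse 3 had a mean of 2146.5 against 1892 for Vwf. Its canonical transcript has 8834 bases, and per kb Vwf ranked 2888 of all genes, in place of 133 by the undivided count. The order also depends on which exons are counted. Per kb of all annotated exons F2r was first with 338.7 and Thbd second with 284, followed by Entpd1 with 217.4, Plat with 141.4, Tfpi with 138.6, Vwf with 137.1 and Procr with 112.6, and F3 and F8 were again the lowest with 13.4 and 6.16. On that scale Tfpi and Plat, at ranks 2766 and 2678, fell outside the upper 10% and Entpd1, at rank 1182, entered it.

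Spread between mice set few members apart. Of the 7 members with a mean of at least 200, Vwf was the 1 with a coefficient of variation over 20%, a threshold that 8% of all genes at that level passed. With 1 gene called, nothing is read from the share among the members. Without mouse 3 no member passed, beside 8.71% of all genes, without mouse 2 Vwf and Procr did, beside 9.86%, and without mouse 1 Vwf did, beside 4.84%. In the wider list, counted after values had been seen, 7 of 36 genes passed, namely Vwf, Hspg2, Serpine2, Ptgis, F2rl1, Lrp1 and Thbs1. Without mouse 1 the number was 3, without mouse 2 it was 8 and without mouse 3 it was 4. Mouse 3 was high in some of them and mouse 1 low in others. By a rule chosen after seeing the data, genes with a mean of at least 10 were counted whose level in mouse 3 was over 1.5 times that in each other mouse, and these were Vwf and F8 among the 9 members and Ptgis among the other 35 genes of the wider list, beside 3.23% of all genes. By a like rule for genes lower in mouse 1 by over 1.5 times, also chosen after seeing the data, Lrp1 and Thbs1 were called among the 36 genes at a mean of 200 or more, beside 2.27% of all genes. With the mean of 10 used for mouse 3, F8, Selp and Stab2 were called too, which made 5 of 44 genes and 1 member, beside 5.85% of all genes. Mouse 1 differed from the others in the sex-linked genes named with F8 as well.

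Transcript length went with the level in mouse 3, in a comparison added after values had been seen. Among genes whose mean was 200 or more, the median log2 ratio of mouse 3 to the mean of mice 1 and 2 was -0.13 over 302 genes with a canonical transcript under 1000 bases and 0.15 over 697 genes with 8000 bases or more. Vwf and F8, the members with transcripts of that length (8834 and 9784 bases), had log2 ratios of 0.71 and 1.26, and the short Procr (1609 bases) had 0.45. Of all genes at a mean of 200 or more with 8000 bases or more, 15.2% had a coefficient of variation over 20%, and of those at a mean of 10 or more, 5.59% were over 1.5 times both other mice in mouse 3. The part of transcript length in the Vwf and F8 values was not tested.

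Several lists of cell type markers were uneven between the same mice. The 6 endocardial markers, all with a mean of at least 200, summed to 3982, 2796 and 5551 normalized counts in mice 1, 2 and 3, with Npr3 the most abundant at 1577 ± 657 (SD, n = 3). Each of them was highest in mouse 3, and all but Plvap, with 785, 852 and 937, were lowest in mouse 2. The 6 lymphatic markers, all with a mean of at least 200 too, summed to 3316, 4197 and 4840, with Flt4 the most abundant at 1641 ± 251. The 9 mural markers, 5 of them at that level, summed to 1611, 2006 and 2286, with Rgs5 the most abundant at 554 ± 56.0. The lymphatic and mural sums were lowest in mouse 1 and highest in mouse 3, but not all of their genes were. Among the mural genes the smooth muscle genes Acta2, with 67, 128 and 210, Myh11, with 31, 118 and 240, and Tagln, with 103, 206 and 338, had this order, as did Cnn1, with 1, 4 and 12, and Pdgfrb, with 212, 254 and 280. Without Acta2, Myh11 and Tagln the sums were 1410, 1554 and 1498, with mouse 1 still the lowest but mouse 2 the highest. The pericyte gene Rgs5 was lowest in mouse 3, with 542, 615 and 505, Kcnj8 was highest in mouse 1, with 138, 85 and 119, and Cspg4 was highest in mouse 2, with 134, 295 and 186. Of the lymphatic genes, Prox1 had 349, 554 and 550 and Pdpn had 193, 312 and 264. The 10 macrophage and monocyte markers summed to 920, 1250 and 1212, with Lyz2 the most abundant at 217.3 ± 26.6, a sum that was lowest in mouse 1, although Cd14 was highest there, with 135, 88 and 108. The 8 fibroblast markers summed to 2748, 3255 and 3597, with Dcn the most abundant at 799.7 ± 214, and their genes did not move together. Col1a1, Col1a2 and Col3a1 were highest in mouse 2, as with 378, 642 and 401 for Col1a1, whereas Dcn, Lum and Dpep1 were lowest there, as with 813, 579 and 1007 for Dcn. The part of these cell types in the members' values was not tested.

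Other lists moved less in sum or were low. The 7 arterial markers summed to 8681, 7692 and 7881. The 6 venous ones, which include Vwf and Selp, summed to 7449, 7474 and 8358, or without Vwf to 5551, 5588 and 5260. Within the venous list Ackr1, with 24, 116 and 69, and Selp, with 74, 210 and 214, were lowest in mouse 1. Nr2f2, with 999, 965 and 919, and Aplnr, with 2143, 2008 and 1711, were highest there. Ephb4, with 2311, 2289 and 2347, was nearly even. Platelets and megakaryocytes also hold von Willebrand factor, and of their 9 markers 6 were listed, summing to 135, 107 and 120, with Pf4 the most abundant at 50.3 ± 0.58 (SD, n = 3) and Gp9 at 0 in mouse 3. Gp1bb, Gp6 and Treml1 are not listed in the table analysed here. The 6 mesothelial markers summed to 941, 1191 and 1110, of which Wt1 made up 955 ± 93.0. Krt19, with 28, 89 and 103, was lowest in mouse 1, and Upk3b, with 10, 10 and 33, was highest in mouse 3. Msln, Upk1b and Lrrn4 had means of 19.3, 13 and 2.33.

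**Figure D3:**
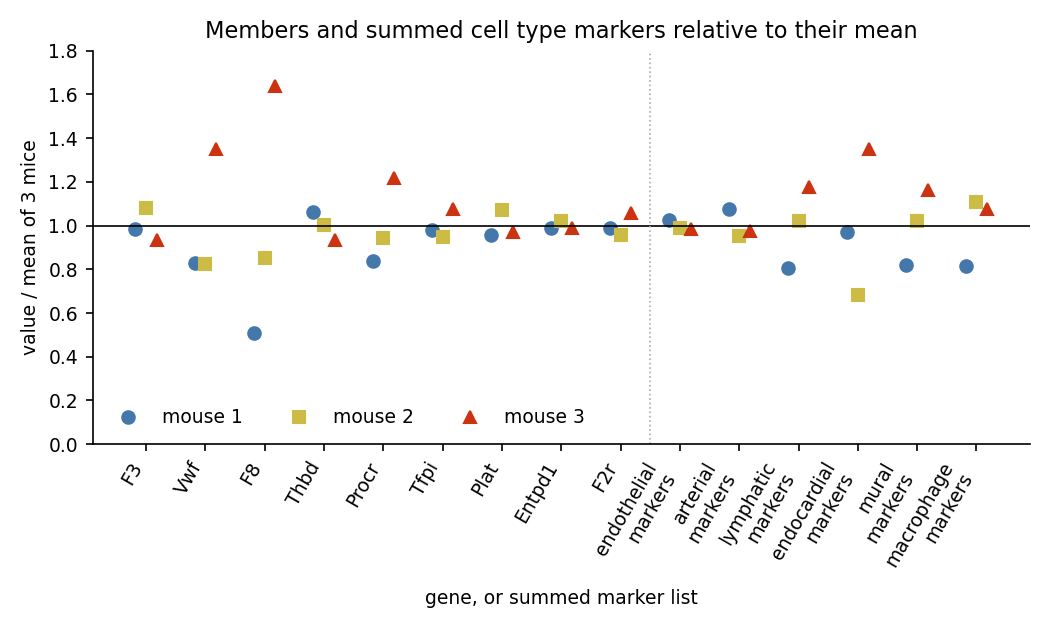
Normalized count of each of the 9 genes, and summed normalized count of 6 marker lists, divided by the mean of the 3 mice, with mouse 1 as circles, mouse 2 as squares and mouse 3 as triangles. Vwf, F8 and the endocardial sum stand out in mouse 3, where they had 3098, 100 and 5551 normalized counts.

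Genes with a profile over mice like that of Vwf or F8 were found by the distance of log2 values centred on their mean, over 3 mice, among genes whose mean was 200 or more. Nearest to Vwf were Zfp335, with 317, 321 and 532 normalized counts, Zfp809, with 194, 195 and 327, and Gnao1, with 165, 169 and 268. In all, 100 of 9357 genes lay within a distance of 0.2 of Vwf. Nearest to F8 were Tagln, a smooth muscle gene with 103, 206 and 338, Col6a1, with 170, 279 and 446, and Zbtb16, with 213, 285 and 598. Of these, Tagln lay within 0.2. The F8 counts were low (interval 21.4 to 44.1 in mouse 1), so counting error alone could change which genes lie nearest to F8.

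Promoter sequence was compared for the members in the RefSeq promoter table of GRCm38.p6, which holds 6 of the 9, with 8 entries. Vwf, Thbd and Plat have no entry. The starts in that table are not always those of the canonical transcripts used for lengths, so that the F8 window and 1 of the 2 Tfpi windows lie wholly past the canonical start, as do 203 of 250 bases for F2r and 106 for Procr. In the 250 bases before the start given there, on both strands, the AP-1 motif TGANTCA was present for F3, Procr and F2r, and in 6.75% of all 32851 promoters. The GC box GGGCGG was present for Tfpi, F3 and F2r and in 32.7% of all promoters. The letters TATAAA (12.4% of all) and AGATAA (9.99%) were found for Tfpi, and CCGGAA (12%) for F2r. AP-1 is a dimer of FOS and JUN proteins, and its subunit genes, looked up after values had been seen, were uneven in part. Fos had 252, 220 and 652 normalized counts in mice 1, 2 and 3 and Fosb had 204, 198 and 707. Jun had 1646, 1463 and 1406, Junb had 646, 614 and 694, Jund had 1247, 1317 and 1199 and Fosl2 had 1153, 1339 and 1344. Jund and Jun, at 752 and 472 normalized counts per kb, lay nearer the limit of start positions, so their spread may be understated. Junb, Fosl2, Fos and Fosb, at 360, 183, 177 and 97.7 per kb, lay further from it. The part of these subunit genes in the members' values was not tested. The windows of 30 bases around the motif are shown because it is the sequence feature that these 3 genes share, with the motif in capitals, 5′ to 3′ on the strand of the gene in GRCm39. The F3 window is chr3:121517034-121517063 on the plus strand, 123 bases before the canonical start and within an exon of another transcript. It holds the motif 2 times. The Procr window is chr2:155592972-155593001 on the plus strand, 30 bases before the canonical start and outside annotated exons, and the F2r window is chr13:95755160-95755189 on the minus strand, overlapping the first exon of the canonical transcript in the newer annotation and lying before the start of the gene in the deposited table.
F3: cgctgtTGAATCAcggtTGAGTCAcccctt
Procr: ccccaccccccTGACTCAgcggcgacctac
F2r: ccccgaggggcTGAGTCActcccaggcttg
A match of letters is not a measured binding site.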

How the data were processed

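The authors deposited 1 table for the 3 libraries, whose unit is a score in the sense that read counts were divided by a DESeq2 (1.36.0) size factor and rounded. Before that they trimmed reads with Trimmomatic (0.39), aligned them with STAR (2.7.11a) to mm39 with Ensembl release 109, removed duplicates (Picard 3.1.1) and multi-mapping, ribosomal and mitochondrial reads, and counted exonic reads on the correct strand with featureCounts (2.0.4). Raw counts were not used here, so no count model was fitted. Lengths came from GENCODE release 39 and covered 17475 of 17583 genes. Every window of 72 bases of the members' canonical transcripts was searched in the genome (BLAST 2.17.0), and 0 had an exact copy elsewhere. No canonical transcript of a member shares exonic bases with another gene on its strand. Within-mouse log2 ratios used a pseudocount of 0.5. Functions were tested on simulated data, with Python 3.11.15, numpy 2.4.6, pandas 2.3.3, scipy 1.17.1 and matplotlib 3.10.9. Of the planned comparisons, 2 genes of the wider list and 1 pair are not reported here. Members and lists were chosen with earlier results of these data known. Named genes are the members, the wider list, the paired genes, marker genes and the 3 nearest profiles, besides those said to be looked up later.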

Additional observations from a re-analysis of the deposited data

How the results depend on the processing

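Of 176 values recomputed under other settings, 151 kept their sign or stayed within the spread between mice or within 1.5 times the count. The 45 alternatives for the mean of a member were among them, as were 53 of 54 for the log2 ratios by their sign. With 3 mice, leaving 1 out cannot move a mean by more than the SD. Nor could it reverse a ratio, since each of the 9 pairs had the same sign in all 3 mice. The other scalings, with factors of 0.994 to 1.01, could change little. Agreement of means and signs under these settings was thus largely fixed beforehand. In size, 6 of 9 ratios moved by over 1.5 times with exonic length and 4 with no division by length, and 0 with another pseudocount or a mouse left out. Exonic length in place of canonical length reversed Plat to Plau, to -0.78, and moved the rank per base of Thbd from 390 to 594, Procr from 5853 to 3747, Tfpi from 1175 to 2766, Plat from 1305 to 2678, Entpd1 from 2716 to 1182 and F2r from 1691 to 351. With no division by length the ranks were 12198 for F3, 133 for Vwf, 11677 for F8, 202 for Thbd, 8905 for Procr, 2769 for Tfpi, 2089 for Plat, 638 for Entpd1 and 688 for F2r. These shifts follow from the length used as divisor. The number of members with a coefficient of variation over 20%, 1, was 2 over 15%, 2 with no filter on the mean, and 0 to 2 with each mouse left out. For the wider list it was 7, 4 over 25%, and 3 to 8 with each mouse left out, alternatives chosen after seeing the data. The members over 1.5 times both other mice, 2, were 0 at 2 times and 1 at a mean of at least 200, also chosen after seeing the data.

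All values rest on 3 mice of 1 condition, without input or control libraries, and the pair test cannot fall below 0.25. By Xist and Ddx3y, mouse 1 was male and mice 2 and 3 were female, so sex cannot be told apart from other traits of mouse 1. At about 40 normalized counts, as for F3, counting limits what can be seen between mice. For the members at a mean of at least 200 the spread between mice matters as much or more, except for Entpd1. The labels place the hearts after an infarction but do not spell out the region, for which remote zone is a possible reading. The annotation is newer than that of the authors. No paired comparison between conditions was possible because there is 1 group.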

Other observations

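The flow-responsive transcription factors KLF2 and KLF4, known as inducers of thrombomodulin in endothelial cells, were looked up after values had been seen. Klf2 had 1505, 1523 and 1386 normalized counts in mice 1, 2 and 3, a mean of 1471 ± 74.4 (SD, n = 3), and Klf4 had 1649, 1599 and 1718, a mean of 1655 ± 59.8. Their coefficients of variation were 5.06% and 3.61%, beside 6.53% for Thbd. At 736.4 and 545.8 normalized counts per kb of canonical transcript, beside 557.9 for Thbd, all 3 lay near the limit of 1000 start positions per kb, which limits the spread that can be seen. A relation between these genes was not tested, since 3 libraries of 1 condition give no basis for it.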
